A study of Mus musculus with 8 samples.

Results

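Litaf, Qpct, 1810011H11Rik, Map6, Dcaf4, Fcgrt, Ggt1 and Amigo3 are 8 genes, of 13341 in the table, whose level in T cells differed between kidney and spleen by unlike amounts in CD8+ and in CD4+ cells. They were taken by name because of that pattern in these same libraries. Their kidney minus spleen differences in each lineage, and the gap between the lineages, are therefore given as a description with no test. All 8 passed the filter on low values, with 10845 genes in all.

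The libraries came from MRL/lpr mice, which have the lpr mutation in the death receptor gene Fas and come down with a lupus-like disease with T cells in the kidney. T cells with high surface CD44, a mark of antigen experience, were sorted at 14 weeks of age into kidney CD8+, spleen CD8+, kidney CD4+ and spleen CD4+ cells, with 2 libraries for each of the 4 groups (n = 2 throughout). All groups carry the lpr mutation, so no value here comes from a mouse without it, and the labels give neither how many animals went into a library nor which libraries share one. The duplicates may thus be technical, in which case the p-values measure only the spread between the preparations. The RNeasy Plus Micro kit yielded the RNA, and SMART-Seq v4 copied it into unstranded full-length complementary DNA.

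CD8+ T cells are the cytotoxic lineage, which reads antigen on class I molecules, and CD4+ T cells are the helper lineage, which reads it on class II molecules. Both leave lymphoid organs such as the spleen and enter inflamed tissue, where they take up programmes of retention, effector function and exhaustion. In lupus nephritis, T cells gather around tubules and glomeruli, beside macrophages and other infiltrating cells. The 8 genes encode proteins of unlike kinds. Litaf and Fcgrt act in endosomal sorting, Qpct and Ggt1 are enzymes that modify peptides and glutathione, Map6 binds microtubules, Dcaf4 serves a ubiquitin ligase, and 1810011H11Rik and Amigo3 are membrane proteins.

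Depth was 7477544 to 11169003 reads per library, and a level is the deposited normalised count, in which 1 read was worth 0.554 to 1.04. Cd8a, a check of the sort, stood at 12159 to 18556 over the 4 CD8+ libraries, against 1.11 to 103 over the 4 CD4+ libraries. Cd4, the other check, stood at 1365 to 2224 over the 4 CD4+ libraries. It was 17.8 and 17.0 in kidney CD8+ cells and 0 and 3.82 in spleen CD8+ cells. The kidney CD4+ duplicates were the least alike, with a Pearson r of 0.772 across genes, which are not independent replicates, against 0.883 to 0.958 in the other 3 groups. Cd3e, part of the CD3 signalling complex, stood at 637 in kidney CD4+ replicate 2, against 4225 to 6826 in the other 7 libraries. Other T cell genes there went both ways, with Lck at 2813 and Cd3g at 48406, against 24569 and 24538 in kidney CD4+ replicate 1. The 10 T cell genes summed to 119893 in replicate 2 and 111833 in replicate 1, so the sum was not low.

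Promoter sequence is shown for 3 genes that stand for 3 of the patterns, namely a gain in kidney of both lineages (Litaf), a gain in kidney CD8+ cells with near-equal CD4+ levels (1810011H11Rik), and a lower level in kidney CD8+ cells (Fcgrt). Each window runs from 250 bases before to 50 after the annotated start, on the gene's own strand, from RefSeq on build GRCm38.p6. The positions are chr16:10993072-10993371 on the minus strand for Litaf, chr14:32785713-32786012 on the plus strand for 1810011H11Rik, which RefSeq lists as Tmem273, and chr7:45103773-45104072 on the minus strand for Fcgrt. Capitals mark the motifs found.
Litaf: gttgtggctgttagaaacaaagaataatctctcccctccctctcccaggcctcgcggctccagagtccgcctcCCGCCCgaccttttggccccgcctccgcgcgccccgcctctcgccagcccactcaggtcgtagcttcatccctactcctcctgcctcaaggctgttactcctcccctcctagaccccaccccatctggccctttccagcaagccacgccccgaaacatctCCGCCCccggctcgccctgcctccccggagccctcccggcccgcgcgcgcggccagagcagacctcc
1810011H11Rik: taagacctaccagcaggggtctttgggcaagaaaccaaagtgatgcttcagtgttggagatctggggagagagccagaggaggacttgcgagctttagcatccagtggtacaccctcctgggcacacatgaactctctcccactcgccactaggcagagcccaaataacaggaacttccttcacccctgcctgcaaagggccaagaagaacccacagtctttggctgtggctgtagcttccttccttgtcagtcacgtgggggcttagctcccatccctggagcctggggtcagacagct
Fcgrt: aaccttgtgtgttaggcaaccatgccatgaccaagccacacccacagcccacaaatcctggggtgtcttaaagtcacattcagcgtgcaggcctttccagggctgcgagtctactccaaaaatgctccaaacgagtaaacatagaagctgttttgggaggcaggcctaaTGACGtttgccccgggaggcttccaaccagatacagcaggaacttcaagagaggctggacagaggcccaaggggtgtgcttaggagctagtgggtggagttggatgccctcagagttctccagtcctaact

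Of the 8 genes 6 had a promoter in the RefSeq table, and those of Qpct and Map6 were not used here. Motifs were searched on both strands as exact letters. The Sp1 motif was spelled GGGCGG and stood in 35.7% of all 32851 windows in the table. The cyclic AMP response element, in its short form, was spelled TGACG and stood in 20.8% of them. The AP-1 motif was spelled TGANTCA and stood in 7.81%. For RUNX the letters were TGTGGT, present in 16.8%, and the TATA box, TATAAA, was present in 13.6%. No letters are shared by overlap between matches in the windows printed. The Litaf window held the Sp1 motif on the opposite strand at positions -177 and -17 from the start site, and its GC content was 68.3%, against a median of 52.7% over all windows. The Fcgrt window held the response element letters at -81, and the 1810011H11Rik window held no match. Dcaf4, Ggt1 and Amigo3 also held the Sp1 motif in at least 1 of their windows. Ggt1 windows held the response element letters as well. RUNX letters stood in windows of Dcaf4 and Ggt1, and TATA letters in a window of Ggt1. A match is a run of letters and not a measured binding site.

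The plot of levels in every library shows the 8 genes side by side. Kidney CD8+ cells held the highest group mean for Litaf, Qpct and 1810011H11Rik, spleen CD8+ cells for Dcaf4, Fcgrt and Ggt1, spleen CD4+ cells for Map6 and kidney CD4+ cells for Amigo3.

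**Figure D1:**
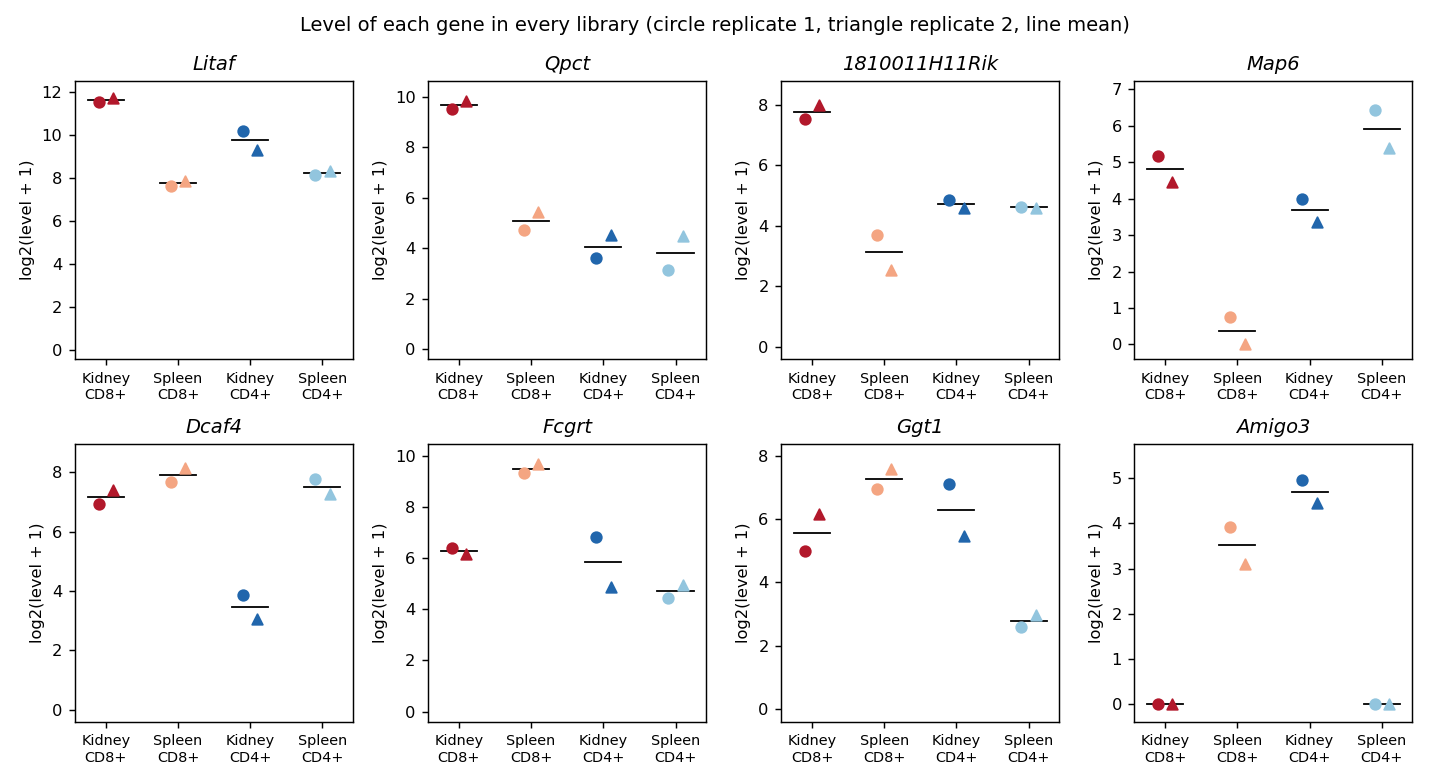
Level of the 8 genes as log2(level + 1) in each of the 8 libraries, by group, with circles for replicate 1, triangles for replicate 2 and a line at the mean of the group. Litaf, Qpct and 1810011H11Rik were highest in kidney CD8+ cells, Dcaf4 stood apart as low in kidney CD4+ cells, and Amigo3 had 0 reads in kidney CD8+ and spleen CD4+ cells.

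Litaf, an endosomal and lysosomal membrane protein first described as a factor induced by lipopolysaccharide, was the member whose kidney libraries lay above the spleen libraries in both lineages. Its level was 3006 and 3393 in kidney CD8+ cells, against 199 and 238 in spleen CD8+ cells. Kidney CD4+ cells held 1188 and 647, and spleen CD4+ cells 289 and 323. Neither pair of organs overlapped, and the gap was wider in CD8+ cells. The mean level was 14.7-fold higher in kidney than in spleen CD8+ cells and 3.0-fold higher in kidney than in spleen CD4+ cells. On the log2(level + 1) scale the kidney minus spleen difference was 3.87 in CD8+ and 1.52 in CD4+ cells, a gap of 2.35 between the lineages. Over every kidney and spleen pairing the CD8+ difference ran from 3.65 to 4.09 and the CD4+ difference from 1.0 to 2.04, so the 2 ranges did not meet. The 4 groups stood in the order kidney CD8+, kidney CD4+, spleen CD4+, spleen CD8+, with no overlap between neighbours. The gene lies on chromosome 16 at 10959368 to 11066250, minus strand, in mm9, the build of the files, and its longest transcript has 2235 nt.

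Qpct, the secreted glutaminyl cyclase that turns an N-terminal glutamine or glutamate of peptides and chemokines into pyroglutamate, was high in kidney CD8+ cells alone among the 4 groups. It stood at 729 and 915 in kidney CD8+ cells, against 25.6 and 42.0 in spleen CD8+ cells. The CD4+ levels were 11.3 and 21.9 in kidney and 7.76 and 21.6 in spleen. The CD4+ organs overlapped, and the highest CD4+ library was below the lowest CD8+ one. The mean was 24.3-fold higher in kidney than in spleen CD8+ cells, and 1.13-fold higher in kidney than in spleen CD4+ cells. The log2 difference between organs was 4.60 in CD8+ cells, with pairings from 4.09 to 5.11, and 0.25 in CD4+ cells, with pairings from -0.88 to 1.38, which cross 0. The groups ran in the order kidney CD8+, spleen CD8+, kidney CD4+, spleen CD4+, and only the last 2 overlapped. Qpct lies on chromosome 17 at 79451246 to 79489583, plus strand, in mm9.

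1810011H11Rik, a membrane protein gene for which no function is stated here, had a pattern like that of Qpct between the organs. Its level was 185 and 252 in kidney CD8+ cells, against 12.1 and 4.77 in spleen CD8+ cells. Kidney CD4+ cells held 28.2 and 22.9, and spleen CD4+ cells 23.8 and 23.3. The CD4+ libraries were near level across organs and overlapped, while the spleen CD8+ libraries were the lowest and the kidney CD8+ libraries the highest. The mean was 25.9-fold higher in kidney than in spleen CD8+ cells and 1.08-fold higher in kidney than in spleen CD4+ cells. The log2 differences between organs were 4.64 in CD8+ cells and 0.10 in CD4+ cells, a gap of 4.53. CD4+ levels thus lay between the 2 CD8+ groups. The spleen CD8+ values rest on 23 reads in all, and the gene lies on chromosome 14 at 33599149 to 33631154, plus strand, in mm9.

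Map6, a protein that binds and stabilises microtubules and is best known from neurons, had opposite organ differences in the 2 lineages. Its level was 34.8 and 20.8 in kidney CD8+ cells, against 0.673 and 0 in spleen CD8+ cells, the first of which is 1 read. In CD4+ cells the order was the reverse, at 14.8 and 9.37 in kidney and 85.3 and 41.4 in spleen. Neither pair of organs overlapped. The CD8+ ratio of reads, kidney over spleen, was 69.6 with a 95% exact interval of 12.1 to 2788, which covers counting error only. In CD4+ cells the mean was 5.25-fold higher in spleen than in kidney. On the log2 scale the organ differences were 4.43 in CD8+ and -2.24 in CD4+ cells, a gap of 6.67, and the CD8+ value depends on the pseudocount because spleen CD8+ cells were at the floor. Spleen CD4+ cells held the highest group mean, followed by kidney CD8+, kidney CD4+ and spleen CD8+ cells, with no overlap between neighbours. The gene, named Mtap6 in the mm9 annotation, lies on chromosome 7 at 106415957 to 106485647, plus strand.

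Dcaf4, a WD repeat protein that docks on the DDB1 and CUL4 ubiquitin ligase as a substrate receptor, was low in kidney CD4+ cells alone among the 4 groups. Kidney CD8+ cells held 119.7 and 169, against 204 and 284 for spleen CD8+ cells. The CD4+ levels were 13.4 and 7.28 in kidney, against 216 and 152 in spleen. Both lineages were lower in kidney with no overlap between organs, by a wider gap in CD4+ cells. The mean was 1.69-fold higher in spleen than in kidney CD8+ cells, and 17.8-fold higher in spleen than in kidney CD4+ cells. The log2 differences were -0.75 in CD8+ and -4.06 in CD4+ cells, a gap of 3.30. Over the pairings they ran from -1.24 to -0.27 in CD8+ and from -4.71 to -3.41 in CD4+ cells. Spleen CD8+, spleen CD4+ and kidney CD8+ cells overlapped with their neighbours in the order, and kidney CD4+ cells lay below all of them. The kidney CD4+ values rest on 26 reads in all, and the gene lies on chromosome 12 at 84861416 to 84882938, plus strand, in mm9.

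Fcgrt encodes the heavy chain of the neonatal Fc receptor, which pairs with beta-2 microglobulin in endosomes and returns IgG and albumin to the cell surface. Its level was 83.2 and 70.9 in kidney CD8+ cells, against 634 and 814 in spleen CD8+ cells. Kidney CD4+ cells held 111 and 28.1, and spleen CD4+ cells 20.5 and 30.2. Spleen CD8+ cells stood above the other 6 libraries. The kidney CD4+ duplicates disagreed, with replicate 1 above both spleen CD4+ libraries and replicate 2 between them. The mean was 9.40-fold higher in spleen than in kidney CD8+ cells and 2.75-fold higher in kidney than in spleen CD4+ cells. The log2 difference between organs was -3.21 in CD8+ cells, with pairings from -3.50 to -2.92. In CD4+ cells it was 1.14, with pairings from -0.10 to 2.39, so its sign depended on which libraries were paired. Kidney CD8+ and kidney CD4+ cells overlapped, as did kidney CD4+ and spleen CD4+ cells. The gene lies on chromosome 7 at 52348363 to 52359192, minus strand, in mm9.

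Ggt1, the cell-surface enzyme that starts the breakdown of extracellular glutathione and is abundant on the brush border of the proximal tubule, also had opposite organ differences. Its level was 30.6 and 70.1 in kidney CD8+ cells, against 123 and 191 in spleen CD8+ cells. In CD4+ cells it was 137 and 43.7 in kidney, against 4.99 and 6.90 in spleen. No pair of organs overlapped, but spleen CD8+ overlapped with kidney CD4+ and kidney CD4+ with kidney CD8+ cells. The mean was 3.12-fold higher in spleen than in kidney CD8+ cells and 15.2-fold higher in kidney than in spleen CD4+ cells. The log2 differences were -1.70 in CD8+ and 3.51 in CD4+ cells, a gap of -5.22. Miox, a tubule enzyme gene, stood at 1252 and 3247 in kidney CD8+ cells and 1281 and 5964 in kidney CD4+ cells and at 0 in all 4 spleen libraries. Ggt1 had reads in spleen CD8+ cells, where Miox had none. Within kidney CD8+ cells the library with more Miox also had more Ggt1, and within kidney CD4+ cells the library with more Miox had less Ggt1. The part of tubule RNA in the kidney values of Ggt1 was not tested. The gene lies on chromosome 10 at 75024349 to 75048945, plus strand, in mm9.

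Amigo3, a membrane protein with leucine-rich repeats that is known from neurons as an adhesion molecule, was detected in 2 of the 4 groups. It had 0 reads in both kidney CD8+ libraries, against levels of 14.1 and 7.64 in spleen CD8+ cells. In CD4+ cells it stood at 30.3 and 20.8 in kidney, against 0 reads in both spleen libraries. Spleen CD8+ and kidney CD4+ cells, where it was found, held 29 and 63 reads. With 3 reads over a group as the most that a count of 0 allows, kidney CD8+ cells were at least 8.99-fold lower than spleen CD8+ cells, and kidney CD4+ cells at least 25.2-fold higher than spleen CD4+ cells. The fitted log2 differences of -3.52 in CD8+ and 4.71 in CD4+ cells, a gap of -8.22, depend on the pseudocount. Amigo3 has 1 exon and lies on chromosome 9 at 107955490 to 107958032, plus strand, in mm9, inside an intron of Rnf123 on the opposite strand. Without strand, unspliced Rnf123 reads cannot be told apart from Amigo3 reads. Rnf123 stood at 118 and 70.9 in kidney CD8+, 47.8 and 58.2 in spleen CD8+, 105 and 55.2 in kidney CD4+ and 77.0 and 86.3 in spleen CD4+ cells, with reads in all 4 groups.

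The plot of organ differences places the 8 genes by both lineages. Kidney and spleen libraries did not overlap for 8 of 8 members in CD8+ cells, where 51.1% of all tested genes had that property, and for 5 of 8 in CD4+ cells, where 31.9% had it. They did so in opposite directions for 3 of 8, Map6, Ggt1 and Amigo3, against 3.37% of all genes, and in the same direction for 2 of 8, Litaf and Dcaf4, against 14.2%. These shares are what the choice of the genes selected for, and nothing is read from them. The median gap between the lineages was 2.83 over the members and 0.11 over all genes. The members' gaps had both signs, from -8.22 for Amigo3 to 6.67 for Map6, so their median gives no shared direction.

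**Figure D2:**
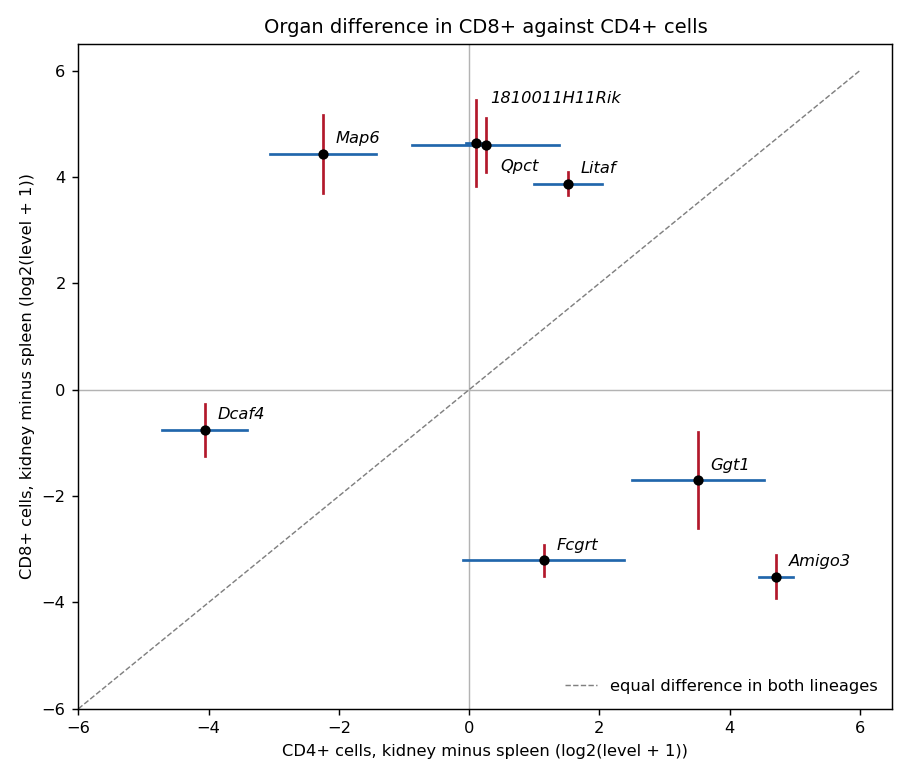
Kidney minus spleen difference in log2(level + 1) of each gene in CD8+ cells (vertical axis) against CD4+ cells (horizontal axis), where points are differences of group means, bars span the 4 possible pairings of kidney and spleen libraries, and the dashed line marks equal differences. Map6 sits at 4.43 and -2.24, Ggt1 at -1.70 and 3.51 and Amigo3 at -3.52 and 4.71, in the 2 corners where the lineages have opposite signs.

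The gap itself was called for 0 genes by limma and by edgeR, and for 12 genes by DESeq2. The limma test of the difference of organ differences, over 10845 genes with Benjamini-Hochberg adjustment, gave a share of 0% and a smallest adjusted p of 0.999, and 362 genes had an unadjusted p below 0.05. edgeR on the recovered reads had 319 below an unadjusted 0.05. The 12 genes of DESeq2 included all 8 members, which were chosen for this gap, so that is no support for it. Fits without a kidney CD4+ library leave 1 library in that group, so member calls on the gap from them are not given. Ordered by the limma test over all 8 libraries the members held ranks 1, 2, 4, 5, 6, 7, 8 and 11. Tnfsf8, which encodes the CD30 ligand, held rank 3 among them, and Litaf, the last member, had a gap of 2.35. Kansl1l, just outside at rank 12, had a gap of 6.94, with 45.0 and 24.7 in kidney CD8+, 0.673 and 2.86 in spleen CD8+, 1.41 and 0 in kidney CD4+ and 5.54 and 29.3 in spleen CD4+ cells. In the organ comparisons limma called 1.55% of genes in CD8+ cells, 1.21% higher and 0.341% lower in kidney, and 0.959% in CD4+ cells, 0.802% higher and 0.157% lower in kidney. The members were chosen on these contrasts, so their own p-values on them are not given. Their ranks and DESeq2 calls describe that choice and are no test of the gap.

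The average of CD8+ minus CD4+ over both organs is a contrast that the choice did not use. Its estimate is unrelated to the organ differences where the groups vary equally, which holds only roughly here because the kidney CD4+ duplicates vary more. The residual spread is shared with the gap, by whose limma p the members rank high, and a small spread lowers the p here too. The choice may thus raise the share of members called, so the share over all genes beside it is no test. By limma 3 of 8 members were called higher in CD8+ cells and 0 lower, where 0.443% of all tested genes were called higher, 0.858% lower and 1.3% in either direction. Qpct was 3.44 ± 0.47 (log2, SE) higher in CD8+ cells (adjusted p = 0.0129), Fcgrt 2.62 ± 0.46 higher (adjusted p = 0.0361) and Dcaf4 2.06 ± 0.36 higher (adjusted p = 0.0361). These 3 genes differ in which organ carries the average. The Qpct difference between lineages was 5.61 in kidney and 1.27 in spleen, that of Dcaf4 3.71 in kidney and 0.41 in spleen, and that of Fcgrt 0.44 in kidney and 4.80 in spleen.

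Qpct was the only member with all 4 CD8+ libraries, at 25.6 to 915, above all 4 CD4+ libraries, at 7.76 to 21.9, a separation that 2.2% of all tested genes had in that direction and 5.82% in either. None of the 3 calls held without every library. The Qpct call was lost without either kidney CD8+ library, either spleen CD8+ library or spleen CD4+ replicate 1, with an adjusted p of 0.00248 to 0.101 over the 8 libraries left out in turn. The Dcaf4 and Fcgrt calls were lost when any one of the 6 kidney CD8+, spleen CD8+ and spleen CD4+ libraries was left out, with adjusted p-values of 0.00185 to 0.252 for Dcaf4 and 0.000444 to 0.242 for Fcgrt. The estimates themselves stayed between 3.10 and 3.78 for Qpct, 1.86 and 2.26 for Dcaf4 and 2.13 and 3.11 for Fcgrt. With the replicate number as a block, Dcaf4 had an adjusted p of 0.0764 and Fcgrt of 0.0681.

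The other 5 members did not pass. Map6 had -2.21 ± 0.59 (adjusted p = 0.176), Ggt1 1.88 ± 0.52 (adjusted p = 0.192), Litaf 0.69 ± 0.27 (adjusted p = 0.429), 1810011H11Rik 0.77 ± 0.46 (adjusted p = 0.682) and Amigo3 -0.60 ± 0.73 (adjusted p = 0.882), by limma. Their lineage differences had opposite signs in the 2 organs. Litaf stood at 1.86 in kidney and -0.49 in spleen, 1810011H11Rik at 3.04 and -1.50, Map6 at 1.13 and -5.55, Ggt1 at -0.73 and 4.49 and Amigo3 at -4.71 and 3.52, kidney first in each. Without kidney CD4+ replicate 1, which leaves 1 library in that group, the average was 0.91 for Litaf and 2.29 for Ggt1. Over all 8 members the median was 1.33, and over all tested genes it was -0.02.

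**Figure D3:**
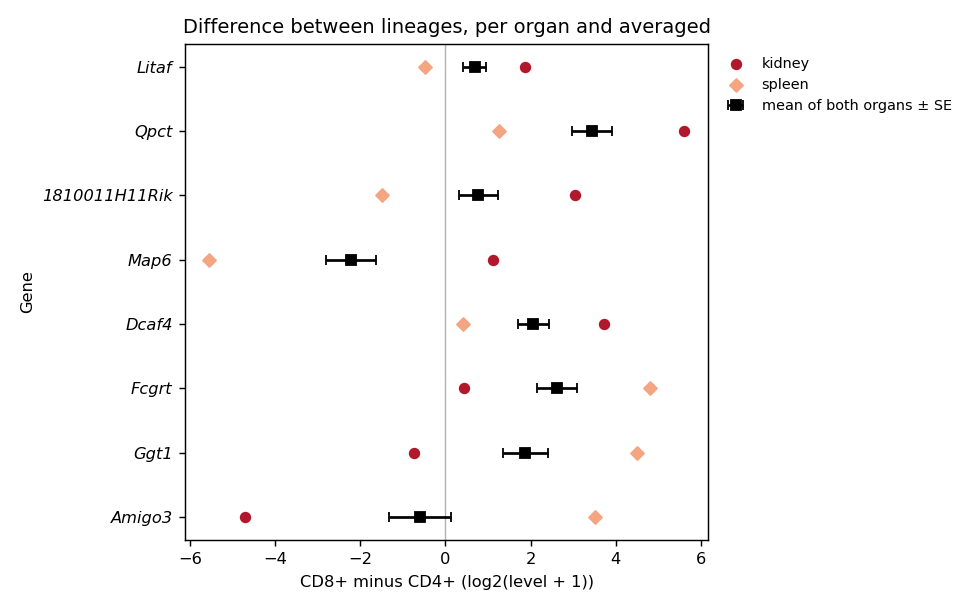
CD8+ minus CD4+ difference in log2(level + 1) of each gene, in kidney (red circles), in spleen (orange diamonds) and averaged over both organs with its standard error (black squares). Qpct, Dcaf4 and Fcgrt, with averages of 3.44, 2.06 and 2.62, lie above 0 in both organs, and the other 5 genes have kidney and spleen values on opposite sides of 0.

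Genes that work with the members were described from 7 lists of 104 genes, of which 84 were tested. Limma called 1 of the 84 in the lineage average, 1 in the CD8+ organ comparison, 0 in the CD4+ organ comparison and 0 in the gap between lineages. Over all tested genes limma called 1.3%, 1.55%, 0.959% and 0% in the same order of comparisons. At an unadjusted p below 0.05 there were 8, 5, 10 and 0 list genes, where 9.88%, 10.6%, 9.11% and 3.34% of all tested genes had such a p. edgeR called 1, 1, 0 and 0, and DESeq2 called 1, 1, 2 and 0.

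Around Litaf, 14 genes of endosomal sorting and lysosomes, such as Nedd4, Itch, Tsg101 and Lamp1, had medians of -0.10 in the CD8+ and -0.14 in the CD4+ organ comparison, against 0 and -0.08 over all genes, with 0 called by any of the 3 tools and 1 gene at an unadjusted limma p below 0.05 in each organ comparison. Around Qpct, 5 genes for the related cyclase Qpctl and known substrates had medians of 0.41 and 1.31, with 0 called by limma and edgeR and 1 called by DESeq2 in the CD4+ comparison, where 2 of the 5 had an unadjusted limma p below 0.05. Qpctl, the Golgi enzyme with the same activity, stood at 5.94 and 27.8 in kidney CD8+, 29.6 and 44.9 in spleen CD8+, 24.0 and 2.08 in kidney CD4+ and 46.6 and 38.0 in spleen CD4+ cells. Its kidney CD8+ libraries were not above the others, unlike those of Qpct.

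Around Map6, 15 microtubule proteins and tubulins had medians of -0.08 and 0.01 in CD8+ and CD4+ cells, and around Dcaf4, 23 subunits and adaptors of the CUL4 ligase had medians of -0.01 and -0.30, with 0 called in either list by any of the 3 tools and 0 to 2 genes of a list at an unadjusted limma p below 0.05. Ddb1, the adaptor that Dcaf4 docks on, differed between organs by 0.13 ± 0.45 in CD8+ cells (adjusted p = 0.958) and -0.01 ± 0.45 in CD4+ cells (adjusted p = 0.999), by limma. Around Ggt1, 11 genes of glutathione synthesis and breakdown had medians of 0.03 and 0.45, and around Amigo3, 5 genes, mostly of leucine-rich repeat proteins, had medians of 0.09 and 0.31, again with 0 called by any of the 3 tools and 0 or 1 gene at an unadjusted limma p below 0.05.

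Around Fcgrt, 11 genes for its partner, its loading factors and other IgG receptors were tested, and 2 were called by limma. Fcgr3, a low-affinity IgG receptor, was lower in CD8+ than in CD4+ cells over both organs, with a log2 difference of -2.33 ± 0.39 (limma adjusted p = 0.0273). Kidney CD8+ cells held 40.7 and 44.7 and spleen CD8+ cells 10.8 and 21.0, against 197 and 271 for kidney CD4+ cells and 84.8 and 68.2 for spleen CD4+ cells. Fcer1g, the signalling chain of several Fc receptors, was higher in kidney than in spleen CD8+ cells by 3.46 ± 0.53 (limma adjusted p = 0.0199), at 1125 and 455 against 61.3 and 66.8. Its CD4+ levels had the same direction, at 562 and 1176 in kidney against 212 and 175 in spleen. That difference was 2.07 ± 0.53 and did not pass (limma adjusted p = 0.166). Both calls were lost when single libraries were left out, Fcgr3 without any of the 6 libraries other than kidney CD4+ (adjusted p up to 0.213) and Fcer1g without any of those 6 but kidney CD8+ replicate 2 (adjusted p up to 0.219). B2m, the light chain of the Fcgrt receptor, differed between organs by 0.23 ± 0.53 in CD8+ cells (limma adjusted p = 0.923). The summed macrophage markers, which like Fcgr3 were highest in kidney CD4+ cells, follow with those of other cell types.

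The plot of summed markers gives the other cell types beside the members. The 20 proximal tubule genes summed to 8288 to 31380 in kidney CD8+ cells, against 4.04 to 9.55 in spleen CD8+ cells, and to 11744 to 24657 in kidney CD4+ cells, against 8.63 to 15.5 in spleen CD4+ cells. Of the 20 genes 17 were at 0 in both spleen CD8+ libraries and 15 in both spleen CD4+ libraries. In bulk samples, fewer cells of a type and less RNA per cell cannot be told apart.

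Litaf, like the tubule genes, was higher in both kidney groups than in both spleen groups. Tubule sums overlapped between kidney CD8+ and kidney CD4+ cells, and Litaf levels did not. Qpct was low in kidney CD4+ cells and 1810011H11Rik there was near its spleen CD4+ level, where tubule sums were high. Dcaf4, Fcgrt and Ggt1 had their highest group mean in spleen CD8+ cells, where tubule sums were near 0.

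The 11 neutrophil genes summed to 0 to 3.08 in kidney CD8+ and 3672 to 6587 in spleen CD8+ cells, and to 2.08 to 31.0 in kidney CD4+ and 5782 to 9420 in spleen CD4+ cells, and erythroid genes had the same direction. Of the 11, 8 were at 0 in both kidney CD8+ and 6 in both kidney CD4+ libraries. Fcgrt and Ggt1 were low in spleen CD4+ cells, and Map6 was near 0 in spleen CD8+ cells, where neutrophil sums were high. Dcaf4 was lower in kidney of both lineages, as the neutrophil genes were.

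The 11 macrophage genes summed to 1826 to 2417 in kidney CD8+, 852 to 1460 in spleen CD8+, 6555 to 6969 in kidney CD4+ and 1694 to 2297 in spleen CD4+ cells. Most of the macrophage sum came from Lyz2 and C1qb, each highest in kidney CD4+ cells. Cd68 was not, at 258 and 485 in kidney CD4+ against 559 and 518 in spleen CD4+ cells. Cd14 was split between the kidney CD4+ libraries, at 95.9 and 4.16. The 8 dendritic cell genes summed to 3655 to 5815 in kidney CD8+, 2318 to 2852 in spleen CD8+, 14899 to 26403 in kidney CD4+ and 4636 to 5664 in spleen CD4+ cells. Most of the dendritic cell sum came from H2-Aa, H2-Ab1, H2-Eb1 and Cd74, genes of the class II pathway, so it mainly measures these. Itgax did not follow it, at 3.52 and 14.6 in kidney CD4+ and 13.6 and 57.8 in kidney CD8+ cells. Xcr1 overlapped between these groups, and Zbtb46 did follow it, at 4.23 and 19.8 against 0. Kidney CD4+ cells, where the macrophage and dendritic cell sums were highest, were also the group where Amigo3 was highest and Dcaf4 lowest. The 5 B cell genes summed to 232 to 247 in kidney CD8+, 887 to 978 in spleen CD8+, 182 to 220 in kidney CD4+ and 369 to 429 in spleen CD4+ cells, and were highest in the group where Fcgrt was highest. The part of other cells in the levels of the members was not tested.

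**Figure D4:**
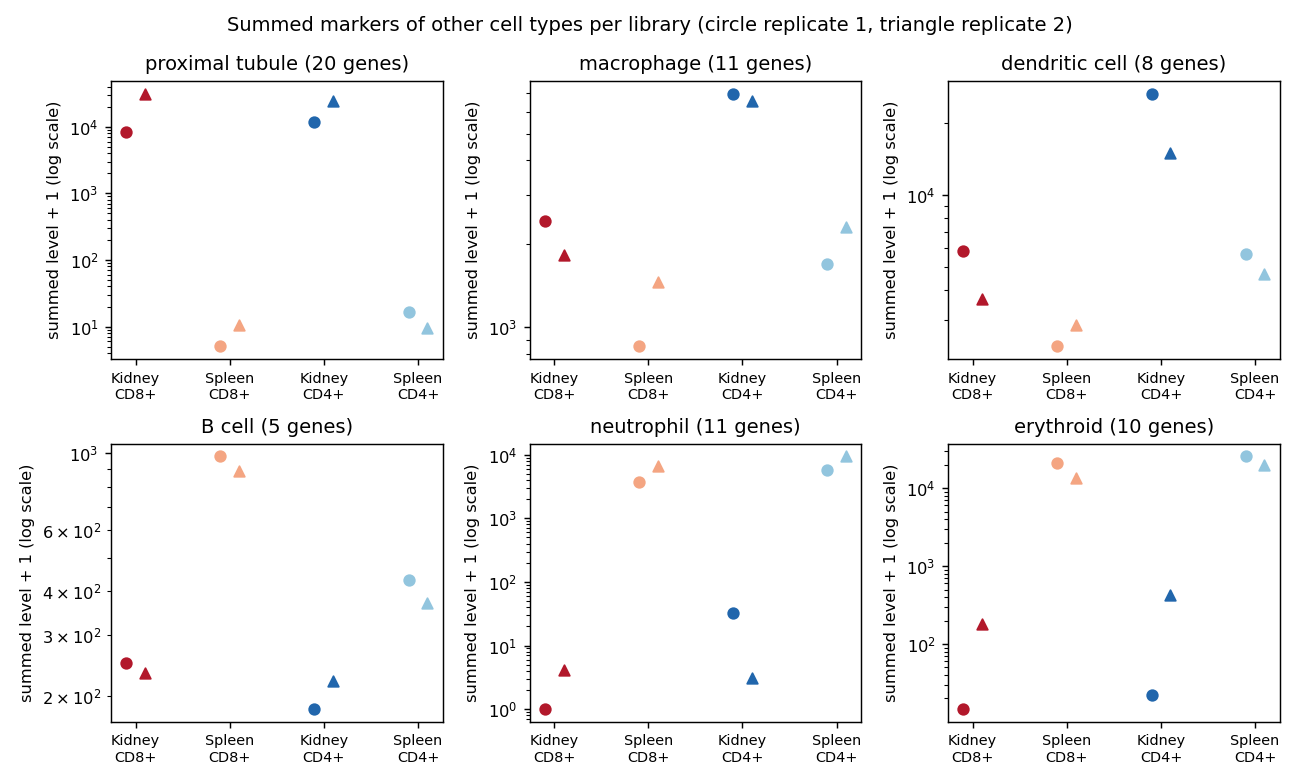
Summed level plus 1, on log axes, of markers of 6 other cell types in each library, with circles for replicate 1 and triangles for replicate 2. Proximal tubule sums were 8288 to 31380 in the kidney libraries and at most 15.5 in the spleen libraries, and macrophage and dendritic cell sums were highest in kidney CD4+ cells.

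For each member the 2 tested genes with the most similar profile were taken by Pearson r of log2(level + 1) over the 8 libraries, a description over libraries that share group and depth. Litaf was nearest to Dclk3 (r = 0.980), which had 19.5 and 13.9 in kidney CD8+ and 7.05 and 3.12 in kidney CD4+ cells and 0 in all 4 spleen libraries, and to Acot12 (r = 0.970). Qpct was nearest to B4galnt2 (r = 0.966), a glycosyltransferase with 28.9 and 27.0 in kidney CD8+, 2.69 and 0.955 in spleen CD8+, 0 and 1.04 in kidney CD4+ and 0 in both spleen CD4+ libraries. Its second was Gzmk (r = 0.959), which encodes the granule protease granzyme K and had 6039 and 5481 in kidney CD8+, 2459.8 and 2728 in spleen CD8+, 1477 and 2311 in kidney CD4+ and 1973 and 2711 in spleen CD4+ cells. The Gzmk pattern was thus shallower, with 3 groups close together.

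The profiles nearest to 1810011H11Rik were those of Sertad2 (r = 0.966) and Smug1 (r = 0.950), and those nearest to Map6 were Mbd6 (r = 0.962) and Tubgcp4 (r = 0.948), a component of the gamma-tubulin complex. Tubgcp4 stood at 83.2 and 80.2 in kidney CD8+, 41.7 and 31.5 in spleen CD8+, 71.9 and 65.6 in kidney CD4+ and 116 and 65.6 in spleen CD4+ cells, a narrower range than that of Map6. Dcaf4 was nearest to Ckap2 (r = 0.982), a spindle protein with 13.6 and 16.2 in kidney CD8+, 13.5 and 23.9 in spleen CD8+ and 28.8 and 18.1 in spleen CD4+ cells and 0 in both kidney CD4+ libraries, and to Phf11c (r = 0.979). Fcgrt was nearest to Pnisr (r = 0.974) and Ppic (r = 0.948), Ggt1 to Kpna4 (r = 0.949) and Ralgapa1 (r = 0.937), and Amigo3 to Zcchc14 (r = 0.950) and Kantr (r = 0.907). Ppic, a cyclophilin, stood at 509 and 642 in spleen CD8+ cells, above the other 6 libraries, as Fcgrt did. Zcchc14 had 0 reads in the same 4 libraries as Amigo3.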

How the data were processed

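Per the labels, reads were aligned to mouse build mm9. The submitters' processing notes list STAR 2.5.3 and TopHat2 2.1.0. Which of these made the table, how reads were counted and with which annotation is not given in the sources used here. A single table of normalised signal per gene was deposited, and all 8 of its columns were used. Every value was a whole read count divided by 1 factor per library (100% whole, tolerance 1e-06), which gave the reads back.

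Groups were compared with limma 3.58.1 in R 4.3.3 on log2(level + 1), a scale that understates changes of low genes. Group means were fitted over all 8 libraries, 2-sided, with an intensity trend (8.48 degrees of freedom), for the 10845 genes that reached a level of 10 in 2 or more libraries. Benjamini-Hochberg adjustment ran over these genes, with a threshold of 0.05. edgeR 4.0.16, DESeq2 1.42.0, other pseudocounts, filters and scalings, library weights, a replicate block and each library left out were tried. The fits were tested on simulated data. Intervals and floors cover counting error only, as reads carry no molecular identifiers.

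Named genes were the 8 members, list genes past the threshold and the 2 nearest profiles per member. The members and lists were chosen with earlier results of these data known. A further list, drawn up for 1810011H11Rik by mistake, is not reported here.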

Additional observations from a re-analysis of the deposited data

Results flagged for a closer look

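Map6, Ggt1 and Amigo3 are given here because every kidney library lay on one side of every spleen library in CD8+ cells and on the other side in CD4+ cells. The CD8+ minus CD4+ gap of their organ differences, on the log2(level + 1) scale, was 6.67 for Map6, -5.22 for Ggt1 and -8.22 for Amigo3. The gap is what these genes were chosen for, so no p of their own is given for it. Over all 10845 genes limma called 0, with 362 at an unadjusted p below 0.05, edgeR called 0, and DESeq2 called 12. In Map6 and Amigo3 the sizes rest on groups with 0 or 1 read.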

How the results depend on the processing

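No result changed direction past a threshold. Counts of called genes (higher and lower) that moved by over 1.5 times were as follows. With DESeq2 they were 146 and 300 in the lineage average, 358 and 128 in the CD8+ organ comparison, 273 and 79 in the CD4+ one and 7 and 5 for the gap between lineages. edgeR called 74 higher in CD8+ cells and 55 and 11 in CD4+ cells. Library weights gave 402 and 175 in CD8+ and 25 and 6 in CD4+ cells, and the 4 CD4+ libraries alone gave 0 and 0, with 719 genes at an unadjusted p below 0.05 by limma. Leaving out each library in turn gave 11 to 785 higher and 14 to 705 lower in the lineage average, 16 to 483 and 4 to 258 in CD8+ cells, 12 to 804 and 3 to 1527 in CD4+ cells, and 0 to 649 and 0 to 96 for the gap. The highest counts came without a kidney CD4+ library, and a lone library was then assumed to vary like the others.

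Whether the replicate numbers pair the samples is not known. Correlations of same-numbered deviations ran from -0.155 to 0.0559, which does not settle it. As a block the replicate numbers gave 40 and 65 calls in the lineage average, 109 and 28 in CD8+ cells, 74 and 16 in CD4+ cells and 0 and 0 for the gap.

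Of 288 recomputed organ differences and gaps of the members, 279 moved by less than the replicate spread, 9 moved by more and 0 changed sign beyond it. The 9 belong to Map6 and Amigo3 at a pseudocount of 0.5 or 5, where the Amigo3 gap ran from -10.1 to -4.23. With 2 libraries a group, leaving 1 out always moves a group mean by less than the replicate spread. The 8 settings of each difference that left out a library were therefore fixed in advance and say nothing about stability. Only the pseudocount and scaling settings could have come out otherwise. In the lineage average DESeq2 also called Map6 (adjusted p = 0.0395) and Ggt1 (adjusted p = 0.00907), and library weights left Dcaf4 at 0.0558. DESeq2 called 146 genes higher and 300 lower of 10845 there, more than limma with 48 and 93. With 2 libraries a group, a p above the threshold does not show that levels were equal, and members with under 30 reads in a group are limited by counting.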
